A study of Homo sapiens with 14 samples.

Results

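Ribosome footprints were set against RNA, gene by gene, in late pancreatic progenitors (PP2) derived from HUES8, an established human embryonic stem cell line. The cells were wild type, and each assay had 3 PP2 libraries: ribosome profiling (Ribo), which sequences the short pieces of RNA that a ribosome covers, and RNA sequencing (RNA) of total RNA depleted of ribosomal RNA. A gene entered if RefSeq classes it as protein-coding and it had at least 10 counts in at least 2 of the 3 libraries of each assay. Of the 59050 gene symbols deposited, 19170 were protein-coding, and 12398 of these were tested. The series also holds 2 Ribo and 2 RNA libraries each of definitive endoderm (DE) and early pancreatic progenitors (PP1), 14 libraries in all, which served here for a single comparison. The sources used here do not say whether replicates were separate differentiations, so the p-values reflect how much these libraries varied among themselves, and that variation could be purely technical.

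The ratio of footprints to RNA is a measure of how densely ribosomes sit on a transcript, and is widely used as a proxy for how strongly it is translated. Transcripts differ in it because initiation at the start codon depends on the cap, the 5′ leader, upstream reading frames, microRNAs and RNA-binding proteins. Late pancreatic progenitors express PDX1 and NKX6-1, and proteins bound for secretion are made on ribosomes docked at the endoplasmic reticulum.

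The libraries differed in ways that touch every value below. Of all counts, protein-coding genes took 95.05%, 44.5% and 81.1% in Ribo libraries 1, 2 and 3, and 93.9% to 94.3% in the RNA libraries. MT-RNR2, a ribosomal RNA of the mitochondrion, made up 1.65%, 44.6% and 11.004% of the counts in Ribo libraries 1, 2 and 3, and at most 0.0608% of an RNA library. Counts in coding genes came to 22988934, 3200041 and 8320349 in the Ribo libraries and to 16445341, 17343808 and 19813522 in the RNA libraries. RNA library 3 stood apart from RNA libraries 1 and 2, with 1.01% of its coding-gene counts in mitochondrially encoded genes, against 3.56% and 3.97%. The 10 pancreatic progenitor markers were all above the count minimum and summed to 1333 to 1954 Ribo CPM and 460.3 to 1738 RNA CPM. Of other cell types, 4 hepatic markers (ALB, AFP, TTR and APOA1) summed to 4486 to 15251 Ribo CPM and 1802 to 4253 RNA CPM, and the 5 mesenchymal markers to 151 to 342 Ribo CPM and 157 to 232 RNA CPM. The 3 intestinal markers summed to 172 to 311 Ribo CPM and 132 to 186 RNA CPM, and the 3 neural markers to 7.72 to 14.5 Ribo CPM and 7.91 to 9.21 RNA CPM. POU5F1 and NANOG, which mark pluripotent cells, had no Ribo count and together at most 0.596 RNA CPM. RNA library 3 was the lowest RNA library for every progenitor marker except PTF1A, and the highest for all 4 hepatic markers. The part that these other cells had in a ratio was not tested.

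Across the 12398 genes the ratio spanned a wide range. Here the ratio is log2 of Ribo over RNA, in CPM (counts per 1000000 counted), with coding totals as library sizes and TMM scaling (edgeR's trimmed mean of log ratios). It is relative to the typical coding gene, not an absolute rate. The median ratio was 0.07, 10% of the genes lay below -1.36 and 10% above 1.51. The median standard error (SE) of a gene's ratio was 0.37. By edgeR's quasi-likelihood test with Benjamini-Hochberg adjustment, 2136 genes (17.2% of those tested) were higher in Ribo than in RNA and 1977 (15.9%) were lower, 4113 in all (33.2%). Fewer passed without RNA library 1 (2420), RNA library 2 (2754) or Ribo library 3 (2353). More than 2-fold apart were 1973 of the higher and 1793 of the lower genes. With coding totals alone as the library size, the split changed to 1341 higher and 2351 lower, that is, 36.3% higher among those called against 51.9% with TMM, and the median of all genes moved by -0.24. The Ribo libraries and the RNA libraries did not overlap for 6128 genes (49.4%). Each Ribo library was also set against the mean of the RNA libraries. All 3 had the same sign for 8437 genes (68.1%). Of the 2136 higher genes 2128 were positive in all 3, and all 1977 lower genes were negative in all 3. The called genes had passed a test on these same libraries, so their agreement is no separate evidence. The spread between the 3 Ribo libraries had a median of 0.85 on the log2 scale and exceeded 2 for 649 genes (5.23%). Across genes, the ratios of Ribo libraries 1 and 3 had a Spearman rho of 0.86, those of 2 and 3 of 0.75, and those of 1 and 2 of 0.66; each pair shares the same RNA values.

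**Figure D1:**
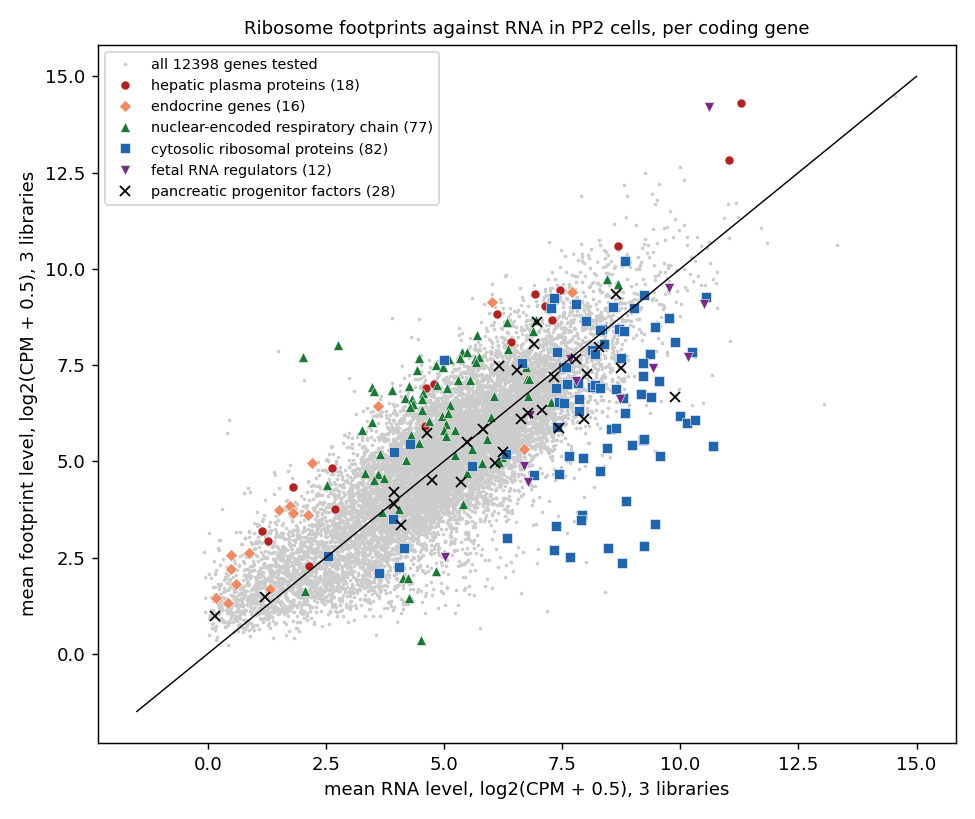
Mean footprint level (vertical axis) against mean RNA level (horizontal axis) of each gene tested in PP2 cells, both as log2(CPM + 0.5) over 3 libraries; the line marks equal values. Hepatic plasma protein and endocrine genes lie mostly above the line (15 of 16 endocrine genes have a positive ratio), and 68 of 82 cytosolic ribosomal protein genes have a negative one.

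Gene classes were then ranked by the median ratio of their members. The highest of 37 classes were endocrine genes, hepatic plasma proteins and apolipoproteins, at medians of 2.06, 1.96 and 1.86. Replication-dependent histones, nuclear-encoded respiratory chain subunits and chaperones of the endoplasmic reticulum followed at 1.40, 1.39 and 1.33. The lowest were a set of fetal RNA regulators around LIN28 at -1.64, cytosolic ribosomal proteins at -1.54, mitochondrially encoded genes at -1.12 and zinc finger (ZNF) genes at -0.88. Transcription factors of the pancreatic progenitor sat close to the middle at -0.18, against 0.07 over all genes. Of the 36 steps between neighbouring classes in this order, 35 were smaller than the larger of the neighbours' SD between the 3 Ribo libraries. The endocrine class, for example, had medians of 1.96, 1.43 and 1.90 in Ribo libraries 1, 2 and 3, and the hepatic class 2.15, 1.01 and 2.50. Ribo library 2 had the lowest median of the 3 for each of the 14 highest classes. Counts of called members moved with single libraries, as did those of all genes (1144 to 2398 higher and 1111 to 2272 lower with 1 library left out), so each count of 9 or more below is given also without the libraries that moved it by over 1.5 times.

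**Figure D2:**
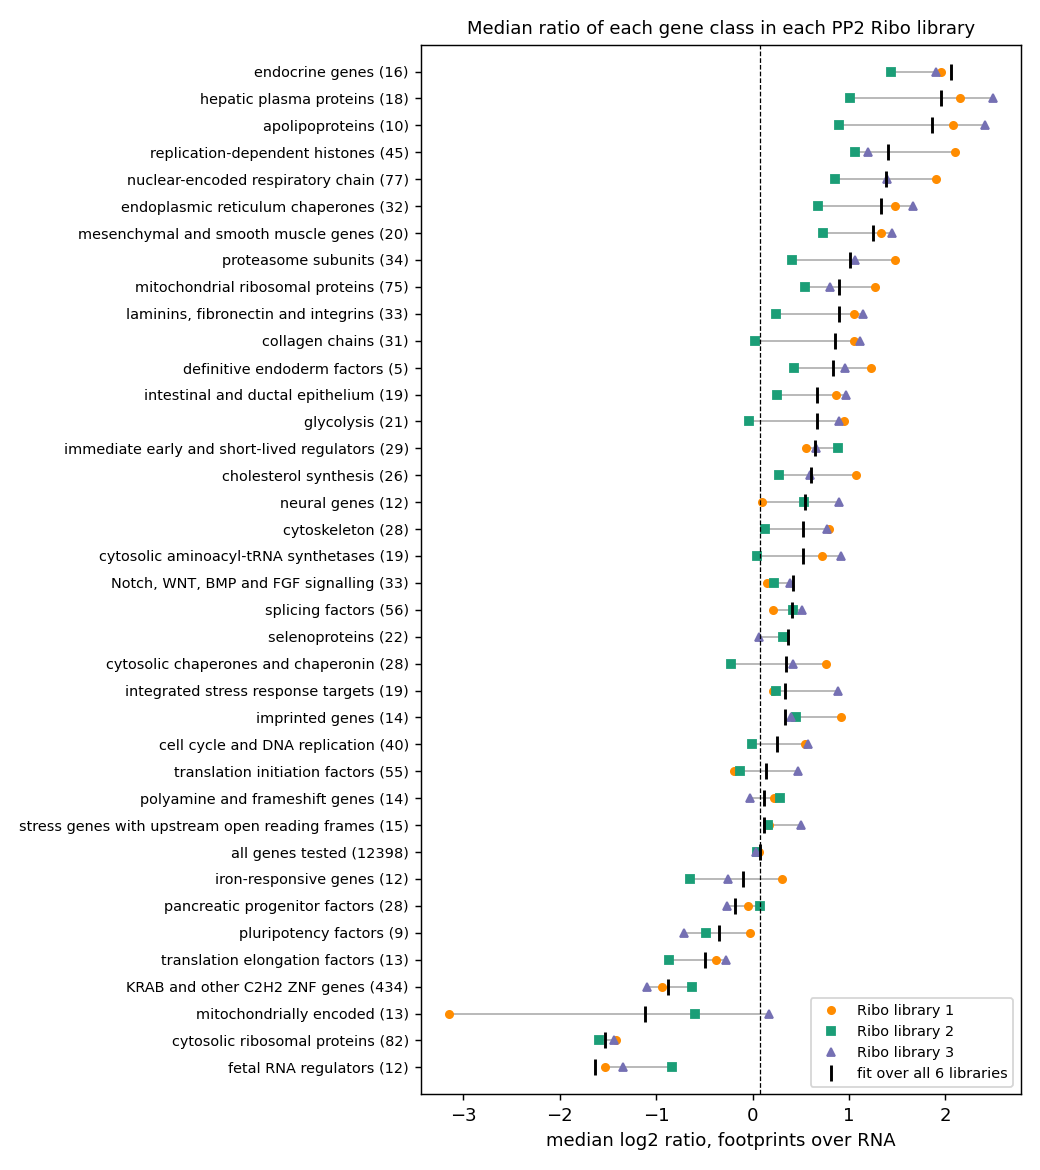
Median log2 ratio of footprints over RNA for each gene class (number of genes tested in brackets), in each of the 3 Ribo libraries (coloured points, joined by a grey line) and in the fit of all 6 libraries (black bar); the dashed line is the median of all genes, 0.07. The mitochondrially encoded class is spread most, from -3.15 in library 1 to 0.17 in library 3.

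Plasma proteins that the liver secretes carried many more footprints than their RNA level would give at the typical ratio. Of 24 hepatic plasma protein genes 18 were tested, and 13 were higher in Ribo, 0 were lower and 5 did not pass, where 17.2% and 15.9% of all genes were higher and lower. APOA1, the main protein of high-density lipoprotein, had 1619.5, 626 and 2072 CPM in the Ribo libraries and 160.03, 180.2 and 193 CPM in the RNA libraries. Every Ribo library stood above every RNA library, with Ribo library 2 the lowest of its assay, and the log2 ratio was 3.02 ± 0.52 (SE, n = 3 each; edgeR adjusted p = 0.00237). APOA2, its partner in that particle, had 604, 287 and 747 Ribo CPM against 58.6, 70.5 and 42.5 RNA CPM (log2 3.26 ± 0.45, edgeR adjusted p = 0.00101). AMBP, the precursor of the protease inhibitor bikunin, had 568, 249.8 and 539 Ribo CPM against 57.98, 50.5 and 98.3 RNA CPM (log2 2.71 ± 0.45). The same order of libraries, 2 below 1 and 3 in Ribo, held for both. VTN, an adhesive plasma glycoprotein, and F2, prothrombin, were higher by 2.42 ± 0.43 and 2.25 ± 0.36. SERPINA1, the inhibitor of neutrophil elastase, had 26285, 10954 and 24098 CPM in the Ribo libraries and 2827, 2832 and 1778 CPM in the RNA libraries. The assays did not overlap there (log2 3.04 ± 0.75, edgeR adjusted p = 0.0113), but the call did not hold without RNA library 1 (adjusted p = 0.0714) or RNA library 2 (0.0778). AFP, the fetal counterpart of albumin, had 7904, 3085 and 10802 Ribo CPM against 1346, 1516 and 3398 RNA CPM and did not pass (log2 1.80 ± 0.69, edgeR adjusted p = 0.0652); its highest RNA library reached above its lowest Ribo library. Of 17 apolipoproteins 10 were tested, with 7 higher and 0 lower. APOB, whose coding sequence is among the longest of any plasma protein, was not among them, at 0.13 ± 0.52 (edgeR adjusted p = 0.865). The count of higher hepatic genes was 8 without Ribo library 3, and that of higher apolipoproteins was 3 without RNA library 2 or Ribo library 3 and 4 without RNA library 1 or Ribo library 1. Without RNA library 3 and Ribo library 2 together, 17 of the 18 hepatic genes and 6 of 9 apolipoproteins were higher. That fit was added after seeing the data, and 3326 of all 12098 genes in it were higher and 2875 lower.

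Chaperones and translocation components of the endoplasmic reticulum, through which secreted proteins pass, also ranked high. Of 32 genes, all tested, 17 were higher in Ribo, 1 was lower and 14 did not pass, against 17.2% and 15.9% of all genes, with a median of 1.33 (library medians 0.68 to 1.67). CALR, the lectin chaperone calreticulin, had 6053, 3324 and 7988 CPM in the Ribo libraries and 640.1, 685 and 510.1 CPM in the RNA libraries. Its lowest Ribo library stood far above its highest RNA library (log2 3.24 ± 0.59, edgeR adjusted p = 0.00299). SSR4, a subunit of the translocon-associated complex, had 749.8, 348 and 712 Ribo CPM against 44.2, 41.6 and 57.7 RNA CPM (log2 3.66 ± 0.43). MANF and SDF2L1, small residents of the compartment, were higher by 2.81 ± 0.39 and 3.27 ± 0.35, and PDIA4, a disulfide isomerase, by 1.92 ± 0.43. XBP1, the transcription factor of the unfolded protein response, and SEC61A1, the pore of the translocon, did not pass, at 0.19 ± 0.38 and 0.70 ± 0.39. SSR3, from the same complex as SSR4, was the lower gene, at -0.97 ± 0.33 (edgeR adjusted p = 0.0431), a call that did not hold without RNA library 1 (0.0805), RNA library 3 (0.0870), Ribo library 2 (0.0737) or Ribo library 3 (0.135). The higher genes numbered 10 without Ribo library 3 and 11 without RNA library 1, RNA library 2 or Ribo library 1. With RNA library 3 and Ribo library 2 both left out, 24 chaperone genes were higher and 1 was lower. Of all 12098 genes in that fit, added after seeing the data, 3326 were higher and 2875 lower.

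Endocrine genes had the highest class median although most were scarce. Of 30 endocrine genes 16 had enough counts. Among these, 12 were higher in Ribo, 1 was lower and 3 did not pass, against 17.2% and 15.9% of all genes higher and lower. CHGA, the granule protein chromogranin A, had 739, 285 and 664 CPM in the Ribo libraries and 50.97, 72.9 and 67.5 CPM in the RNA libraries. All Ribo libraries were several times above all RNA libraries (log2 3.14 ± 0.45, edgeR adjusted p = 0.00109). SCG2, another granin, had 101, 34.4 and 121 Ribo CPM against 6.33, 12.6 and 16.2 RNA CPM (log2 2.88 ± 0.50), and PCSK1N, an inhibitor of prohormone processing, 29.4, 24.03 and 37.6 Ribo CPM against 5.26, 6.01 and 1.15 RNA CPM (log2 2.88 ± 0.54). GHRL, the precursor of ghrelin, was higher by 2.27 ± 0.40. These are secreted products. Among regulators, NEUROD1 was higher by 2.54 ± 0.67 from at most 9.22 CPM, while INSM1 did not pass (0.42 ± 0.58) and RFX3 was lower, at -1.38 ± 0.28. SST, which encodes the hormone somatostatin, had 403, 66 and 157 counts in the Ribo libraries but 6, 6 and 5 in the RNA libraries, and so was not tested. INS and GCG had at most 1.47 Ribo CPM and at most 0.0542 RNA CPM. Without RNA library 3 and Ribo library 2 together, 14 endocrine genes were tested, with 12 higher and 1 lower. That fit, added after seeing the data, had 3326 of all 12098 genes higher and 2875 lower.

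Surface and matrix genes gave a mixed picture, set against 17.2% of all genes higher and 15.9% lower. DLK1, a membrane-bound relative of the Notch ligands, had 24726, 10796 and 20821 CPM in the Ribo libraries and 2196, 2070.03 and 432 CPM in the RNA libraries. RNA library 3 was the low one, and the assays did not overlap (log2 3.58 ± 0.86, edgeR adjusted p = 0.0103). EPCAM and CLDN4, epithelial adhesion and junction proteins, were higher by 2.20 ± 0.50 and 1.84 ± 0.38; they belong to 19 tested intestinal and ductal genes, of which 7 were higher and 1 lower. CFTR, the chloride channel of ducts, was close to the typical ratio (-0.18 ± 0.37). Of 31 collagen chains 10 were higher and 0 lower, and of 33 laminins, integrins and related genes 11 were higher and 2 lower. The higher collagens numbered 4 without RNA library 2, Ribo library 1 or Ribo library 3 and 6 without RNA library 3, and 5 with coding totals as the scaling. The higher laminins and integrins numbered 6 without Ribo library 1 or Ribo library 3. Over all genes, the higher ones fell from 2136 to 1144 without RNA library 2, 1664 without Ribo library 1 and 1242 without Ribo library 3. COL1A2 had 223, 67.05 and 209.8 Ribo CPM against 47.9, 28.01 and 20.1 RNA CPM (log2 2.38 ± 0.49) and COL6A2 148, 85.8 and 198 Ribo CPM against 46.4, 37.4 and 25.4 RNA CPM (log2 1.98 ± 0.38). FN1, fibronectin, had 24748, 6661 and 37848 CPM in the Ribo libraries and 25765, 26703 and 19563 CPM in the RNA libraries. The assays overlapped and the ratio was -0.06 ± 0.86, and Ribo library 2 alone was far below RNA. ITGB8, an integrin subunit that helps activate TGF-beta, was lower, at -1.9996 ± 0.38. Of 20 mesenchymal and smooth muscle genes 9 were higher and 0 lower, among them ACTA2 and TPM2, contractile proteins, at 3.11 ± 0.63 and 2.80 ± 0.37.

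Subunits of the mitochondrial respiratory chain that the nucleus encodes were mostly higher. Of 77 tested, 44 were higher in Ribo, 9 were lower and 24 did not pass, against 17.2% and 15.9% of all genes higher and lower. Their median was 1.39 (library medians 0.86 to 1.91). NDUFA2, of complex I, had 163, 80.7 and 124 CPM in the Ribo libraries and 9.04, 8.56 and 14.1 CPM in the RNA libraries, with no overlap (log2 3.53 ± 0.38, edgeR adjusted p = 4.5e-04). UQCRQ, of complex III, and COX6B1, of complex IV, were higher by 2.98 ± 0.41 and 2.70 ± 0.49. At the other end, SDHD, which anchors complex II in the membrane, had 0.881, 0 and 1.47 Ribo CPM against 15.03, 15.5 and 36.2 RNA CPM (log2 -4.64 ± 0.66), and NDUFV2, of complex I, was lower, at -3.31 ± 0.63. Proteins of the mitochondrial ribosome had a median of 0.90, with 36 of 75 higher and 6 lower. The higher ones numbered 20 without RNA library 2 and 22 without RNA library 1, and 23 with coding totals as the scaling. The 13 genes encoded in the mitochondrion itself, which mitochondrial ribosomes translate, had 0 higher and 4 lower, the lower ones numbering 1 without Ribo library 1 or Ribo library 3 and 2 without RNA library 1 or RNA library 2. Their medians of -3.15, -0.60 and 0.17 in Ribo libraries 1, 2 and 3 had a larger SD than those of any other of the 37 classes. MT-ATP6, a subunit of ATP synthase, had 14.1, 119 and 139 CPM in the Ribo libraries and 1861, 2130.4 and 265 CPM in the RNA libraries. Ribo library 1 was lowest, RNA library 3 was well below the other two, and the ratio was -3.97 ± 0.94 (edgeR adjusted p = 0.00976). The share of MT-RNR2 differed between the same Ribo libraries, as given above, and its part in these values was not tested. With RNA library 3 and Ribo library 2 both left out, 57 of 76 nuclear-encoded subunits were higher and 7 were lower. Of all 12098 genes in that fit, added after seeing the data, 3326 were higher and 2875 lower. With 1 library left out, 35 to 48 nuclear-encoded subunits were higher. The lower subunits came to 4 without Ribo library 3 and 5 without Ribo library 1.

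Histone genes and proteasome subunits also ranked high, where 17.2% of all genes were higher and 15.9% lower. Of 45 replication-dependent histone genes, whose messages end in a stem-loop in place of a poly(A) tail, 20 were higher and 3 were lower (median 1.40). The higher histones numbered 9 without RNA library 1, RNA library 2 or Ribo library 1, 11 without Ribo library 3 and 31 without RNA library 3, and 12 with coding totals as the scaling. HIST1H4A had 312, 133 and 208 Ribo CPM against 14.6, 13.2 and 39.1 RNA CPM (log2 3.29 ± 0.51), whereas HIST2H2BE, which can also be polyadenylated, had 18.7, 9.22 and 6.49 Ribo CPM against 93.5, 88.03 and 329 RNA CPM (log2 -3.86 ± 0.62). Histone genes share long identical stretches, so how reads were divided among them is uncertain. Of 34 proteasome subunits 16 were higher and 3 were lower (median 1.02). The higher subunits numbered 8 without RNA library 2 and 10 without RNA library 1, Ribo library 1 or Ribo library 3. PSMC5, an ATPase of the regulatory cap, and PSMB3, of the core, were higher by 2.97 ± 0.46 and 2.40 ± 0.47.

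The transcription factors that define the progenitor state split around the typical ratio. Of 30 on the list 28 were tested, and 2 were higher in Ribo, 7 were lower and 19 did not pass, against 17.2% and 15.9% of all genes. NKX6-1, which marks progenitors that can form beta cells, had 388, 519 and 274 CPM in the Ribo libraries and 163, 142 and 68.6 CPM in the RNA libraries. All 3 Ribo libraries stood above all RNA libraries (log2 1.66 ± 0.42, edgeR adjusted p = 0.0132). PDX1, the regulator required for pancreas formation, had 171, 146 and 124 CPM in the Ribo libraries and 229.8, 210.3 and 40.5 CPM in the RNA libraries. RNA library 3 fell far below RNA libraries 1 and 2, the assays overlapped, and the ratio was -0.13 ± 0.53 (edgeR adjusted p = 0.872), with a positive value of 0.24 without RNA library 1. SOX9, which maintains the progenitor pool, showed the same low RNA library, with 785, 629 and 527 Ribo CPM against 553, 554 and 96.4 RNA CPM (log2 0.69 ± 0.58, edgeR adjusted p = 0.38). PTF1A, needed for the acinar lineage, was at 0.25 ± 0.41, and FOXA2, HNF4A and GATA6, factors of gut endoderm, at 0.82 ± 0.38, 0.03 ± 0.51 and -0.53 ± 0.46, none of which passed; HNF4A was at -0.43 without RNA library 3.

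Other regulators on that list carried fewer footprints than the typical gene. ONECUT2, a factor shared by liver and pancreas, had 52.6, 139 and 110.3 CPM in the Ribo libraries and 865, 1057 and 912 CPM in the RNA libraries. The lowest RNA library was several times above the highest Ribo library (log2 -3.23 ± 0.47, edgeR adjusted p = 0.00113). TEAD1, the DNA-binding partner of YAP, had 64.2, 84.9 and 56.8 Ribo CPM against 262, 253 and 230.5 RNA CPM (log2 -1.86 ± 0.31), and RBPJ, the DNA-binding effector of Notch, 63.6, 54.8 and 55.1 Ribo CPM against 173, 159 and 183 RNA CPM (log2 -1.57 ± 0.28). For each of the 3 the assays did not overlap. HES1, a target of Notch, was the other higher gene, at 1.30 ± 0.29 (edgeR adjusted p = 0.00739), a call that did not hold without RNA library 2 (0.0674). In the signalling list 6 of 33 genes were higher and 4 were lower, near the 17.2% and 15.9% of all genes. The Notch ligands DLL1 and DLL4 and the Notch target HEY1 were higher by 1.97 ± 0.33, 2.13 ± 0.37 and 1.84 ± 0.28. SMAD6 and SMAD7, which inhibit signalling by BMP and TGF-beta, were lower, at -1.73 ± 0.43 and -1.40 ± 0.39, and neither call held without Ribo library 3 (0.0522 and 0.0695). Without RNA library 3 and Ribo library 2 together, 3 of 27 progenitor factors were higher and 10 were lower, and the median of the list was -0.56. That fit, added after seeing the data, had 3326 of all 12098 genes higher and 2875 lower. The lower factors numbered 3 without RNA library 1 and 4 without RNA library 2.

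**Figure D3:**
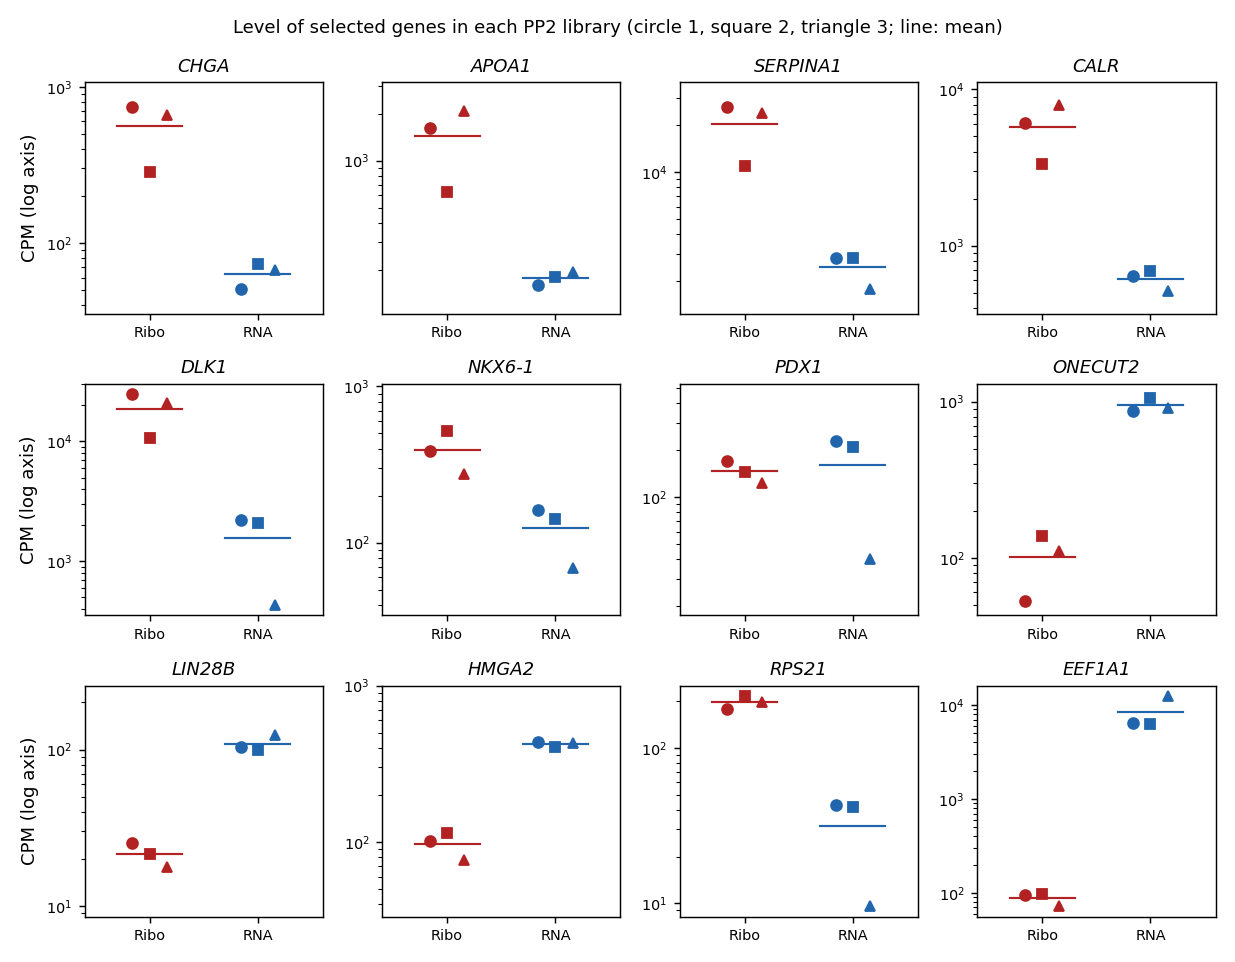
CPM on a log axis in each PP2 library for 12 genes, Ribo libraries in red and RNA libraries in blue (circle, square and triangle for replicates 1, 2 and 3, line for the mean). The assays do not overlap in any panel except PDX1, whose RNA library 3 (40.5 CPM) lies below all Ribo libraries while RNA libraries 1 and 2 lie above them.

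The lowest class was a set of 13 RNA regulators and growth genes of fetal cells linked to LIN28 and the let-7 microRNAs, of which 12 were tested. LIN28A and LIN28B, RNA-binding proteins that block let-7 processing, had 139, 174 and 197 Ribo CPM against 658, 687 and 709 RNA CPM and 25.3, 21.5 and 17.7 Ribo CPM against 103, 99.8 and 123 RNA CPM. The Ribo libraries of both were all below the RNA libraries (log2 -2.01 ± 0.36 and -2.33 ± 0.29; edgeR adjusted p = 0.00273 and 7.2e-04). HMGA2, a chromatin protein of embryonic cells and a known let-7 target, had 101, 114 and 76.4 Ribo CPM against 434, 404 and 432 RNA CPM (log2 -2.13 ± 0.33), and HMGA1, its relative, had 253, 227 and 148 Ribo CPM against 1337, 1379 and 714 RNA CPM (log2 -2.45 ± 0.45). In all, 6 of the 12 were lower and 1, DLK1, was higher. IGF2BP1, which binds and stabilises RNA, did not pass (-0.27 ± 0.42), nor did IGF2, with 359.8, 850.1 and 414 Ribo CPM against 2082, 2273 and 14.7 RNA CPM (log2 -1.43 ± 1.11) and RNA library 3 far below the others. Of 40 cell cycle genes, 7 were higher, 2 were lower and 31 did not pass, where 17.2% and 15.9% of all genes were higher and lower. CCND2, cyclin D2, was the lowest of these, with 117, 109 and 77.7 Ribo CPM against 731, 743 and 602 RNA CPM (log2 -2.77 ± 0.37), while PCNA, the sliding clamp, and MCM7, of the replicative helicase, were higher by 2.02 ± 0.41 and 1.84 ± 0.38. Of the fetal regulators, 9 of 12 were lower without RNA library 3 and Ribo library 2 together. In that fit, added after seeing the data, 2875 of all 12098 genes were lower.

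Zinc finger genes, mostly repressors of the KRAB family, formed the largest class with low ratios. Of 434 tested, 6 were higher in Ribo, 189 were lower and 239 did not pass, against 17.2% and 15.9% of all genes. The median was -0.88, with -0.94, -0.63 and -1.10 in Ribo libraries 1, 2 and 3. ZNF493 had 6.68, 3.91 and 2.65 Ribo CPM against 85.5, 71.3 and 79.4 RNA CPM (log2 -4.10 ± 0.39) and ZNF322 3.11, 7.26 and 1.62 Ribo CPM against 41.4, 42.1 and 65.9 RNA CPM (log2 -3.74 ± 0.50). ZNF830, which is not of the KRAB type and acts in splicing and genome stability, was the highest, at 2.07 ± 0.37. Many zinc finger genes lie in clusters of close paralogs, so single values are uncertain. Of 29 short-lived regulators 9 were higher and 1 was lower. The higher ones came to 3 without Ribo library 3, 4 without RNA library 2 and 5 without RNA library 1, and 4 with coding totals as the scaling. The median of that list was 0.65, and 0.11 relative to genes of like length. FOS, an AP-1 subunit, had 52.7, 154 and 102 Ribo CPM against 11.8, 13.1 and 11.6 RNA CPM (log2 3.08 ± 0.40).

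Proteins of the cytosolic ribosome itself ranked low. Of 87 cytosolic ribosomal protein genes 82 were tested. Among these, 5 were higher in Ribo, 44 were lower and 33 did not pass, against 17.2% and 15.9% of all genes higher and lower. The median of -1.54 was nearly the same in all 3 Ribo libraries (-1.60 to -1.42), and the highest member was at 2.65. Most of these messages begin with a 5′ terminal oligopyrimidine tract, a C followed by further C and T bases through which their translation is regulated as a group. RefSeq start windows (GRCh38.p14) were at hand for 65 of the 82. Counting a C at the first base and an unbroken run of at least 5 pyrimidines on the gene's strand, 43 of the 65 (66.2%) had a tract, against 712 of 15329 coding genes with a window (4.64%). The windows below, 10 bases before the start and 20 from it, show genes at both ends of the class with the tract, which is in capitals. EEF1A1, EEF1B2 and TPT1, which lie outside the class and are described with it for their role in elongation or their known place among such messages, are shown beside them; EEF1B2 has no tract in this window.
RPS21 (chr20:62387093-62387122, plus strand): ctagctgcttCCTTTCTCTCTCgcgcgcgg
RPLP2 (chr11:809957-809986, plus strand): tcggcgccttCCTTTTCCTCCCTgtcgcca
RPL35A (chr3:197950180-197950209, plus strand): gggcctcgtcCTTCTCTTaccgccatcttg
RPS3A (chr4:151099618-151099647, plus strand): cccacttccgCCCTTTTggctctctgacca
RPL21 (chr13:27251548-27251577, plus strand): ccgcctctttCCTTTCggccggaaccgcca
EEF1A1 (chr6:73521013-73521042, minus strand): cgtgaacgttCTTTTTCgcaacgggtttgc
EEF1B2 (chr2:206159599-206159628, plus strand): aagtggccccagcctcgaggccgggcgtct
TPT1 (chr13:45341164-45341193, minus strand): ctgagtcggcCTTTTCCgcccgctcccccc

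RPS21 and RPLP2, a protein of the small subunit and a stalk protein of the large one, were higher and carry the tract. RPS21 had 178, 216 and 197 CPM in the Ribo libraries and 42.7, 41.9 and 9.56 CPM in the RNA libraries, with no overlap and a low RNA library 3 (log2 2.65 ± 0.51, edgeR adjusted p = 0.00367). RPLP2 had 415, 472 and 935 Ribo CPM against 172, 174 and 138 RNA CPM (log2 1.91 ± 0.42). RPS3A and RPL21, with a tract too, had 2.49, 21.2 and 5.60 Ribo CPM against 559, 534 and 1028 RNA CPM and 2.64, 11.7 and 4.13 Ribo CPM against 299.9, 287 and 484 RNA CPM (log2 -6.25 ± 0.81 and -5.95 ± 0.61). EEF1A1, the elongation factor that brings tRNA to the ribosome, had 95.5, 98.1 and 71.9 CPM in the Ribo libraries and 6497, 6285 and 12492 CPM in the RNA libraries. No RNA library came near any Ribo library (log2 -6.57 ± 0.72, edgeR adjusted p = 4.7e-04). Within the 65 ribosomal protein genes the median was -1.21 for those with a tract and -2.20 for those without, and over all 10215 tested genes with a window it was -0.06 with and 0.06 without.

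Copies in the genome moved with these values. RefSeq names 137 pseudogenes of RPL21, 54 of RPS3A and 50 of EEF1A1, but 8 of RPS21 and 5 of RPLP2. The 55 tested ribosomal protein genes with 10 or more named pseudogenes had a median of -2.13, and the 22 with 3 to 9 had -0.35. Outside this class the medians were 0.11 with no named pseudogene (10423 genes), -0.04 with 1 to 2 (1374), -0.42 with 3 to 9 (437) and -1.001 with 10 or more (82). Of the counts on RPL21 and its pseudogenes together, the pseudogenes held 32.0% in Ribo and 4.17% in RNA, and for RPS3A 21.0% in Ribo and 3.26% in RNA. Other genes had the reverse, such as RPS2 with 3.81% in Ribo and 8.49% in RNA, and RPL26 with 0.663% in Ribo and 23.5% in RNA. Of 76 ribosomal protein genes with pseudogenes in the counts, the share was larger in Ribo for 34 and larger in RNA for 40. Footprints are short reads, and how the counting treated reads that match several places is not given in the sources used here. The part of such reads was not tested, and the ratios of genes with near-identical copies are uncertain. Leaving out genes with 3 or more named pseudogenes, 5 ribosomal protein genes remained, with a median of -0.43. These were RPL22L1, RPL26L1, RPL39L, RPS27L and RPS4Y1, all relatives of other ribosomal protein genes, so that median does not stand for the class.

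**Figure D4:**
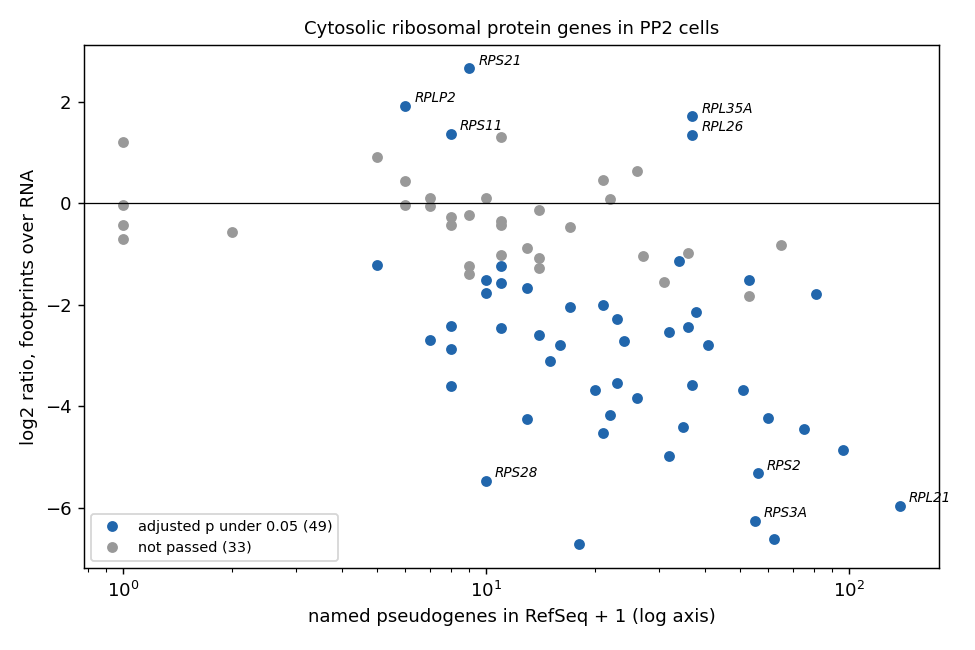
Log2 ratio of footprints over RNA (vertical axis) of the 82 tested cytosolic ribosomal protein genes against the number of their pseudogenes named in RefSeq, plus 1, on a log axis; blue points passed the test and grey points did not. The 5 higher genes are labelled, and the 36 lower genes with at least 10 pseudogenes fill the lower right.

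Translation factors were divided. Of 55 tested initiation factors 13 were higher and 13 were lower, where 17.2% and 15.9% of all genes were higher and lower. The higher ones numbered 5 without Ribo library 3, 6 without RNA library 2 and 7 without RNA library 1, and the lower ones 6 without RNA library 1 or Ribo library 3. EIF4A3, the RNA helicase of the exon junction complex, and EIF3I, of the scaffold that binds the small subunit, were higher by 2.30 ± 0.44 and 1.65 ± 0.33. EIF4B, a partner of the cap helicase, had 24.7, 44.7 and 43.6 Ribo CPM against 614, 602 and 901 RNA CPM (log2 -4.23 ± 0.44), and EIF4E, the cap-binding protein, 5.70, 9.22 and 4.13 Ribo CPM against 77.98, 84.8 and 121 RNA CPM (log2 -3.93 ± 0.39). The RNA libraries of both stood wholly above the Ribo libraries. Among 13 elongation and termination genes 1 was higher and 5 were lower. EEF1B2, which recharges EEF1A1, and TPT1 were lower, at -3.12 ± 0.33 and -3.10 ± 0.48. EEF2, the translocase, had 1937, 2512 and 3318 Ribo CPM against 2421, 2510.3 and 2182 RNA CPM, with overlap and a ratio of 0.13 ± 0.48. Splicing factors, with 12 of 56 higher and 7 lower, were near those shares of all genes. The higher ones numbered 5 without RNA library 2, 6 without Ribo library 3 and 7 without RNA library 1. SRSF9 had 396, 336 and 334 Ribo CPM against 55.7, 58.4 and 61.2 RNA CPM (log2 2.60 ± 0.32), and SNRPD3, a core protein of the spliceosome, had 3.47, 10.3 and 4.42 Ribo CPM against 50.6, 53.1 and 61.96 RNA CPM (log2 -3.27 ± 0.43).

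Calls among genes whose translation responds to stress or metabolites went both ways, where 17.2% of all genes were higher and 15.9% lower. Of 12 tested iron-responsive genes 3 were higher and 4 were lower (median -0.10). FTH1 and FTL, the ferritin subunits, whose leaders bind iron regulatory proteins, were lower, at -2.38 ± 0.80 and -2.06 ± 0.53. TFRC, the transferrin receptor, was higher by 1.17 ± 0.39. None of these 3 calls held without Ribo library 1 (adjusted p = 0.119, 0.0506 and 0.113 in that order) or Ribo library 3 (0.172, 0.0688 and 0.128), nor did those of FTH1 and TFRC without RNA library 1 (0.0521 and 0.161) or that of TFRC without RNA library 2 (0.208). Of 15 stress genes with upstream reading frames 3 were higher, near the share of all genes, and 1 was lower (median 0.12). With 1 library left out, 0 to 3 of them were higher and 0 to 1 lower. ATF4, the stress factor whose leader delays initiation, had 296, 339.7 and 170.3 Ribo CPM against 308, 348 and 545 RNA CPM (log2 -0.58 ± 0.40, edgeR adjusted p = 0.285). Of 19 tested targets of the integrated stress response 3 were higher and 0 lower, against 17.2% and 15.9% of all genes, and GDF15, a secreted stress hormone, was higher by 1.92 ± 0.36. AMD1, an enzyme of polyamine synthesis with an upstream frame, was lower, at -1.77 ± 0.38, while ODC1, the first enzyme of that route, was at -0.04 ± 0.40. Of 26 cholesterol synthesis genes 10 were higher and 1 lower, among the higher DHCR7, a reductase of the final steps, at 1.82 ± 0.40. The higher genes of that route numbered 4 without Ribo library 3 and 5 without RNA library 1 or Ribo library 1, and 5 with coding totals as the scaling.

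At the ends of the ranking, single genes stood far outside their classes. Among the 12 highest genes with at least 20 CPM on average, NDUFA1 and ATP5ME, small subunits of complex I and ATP synthase, had ratios of 5.36 ± 0.51 and 5.87 ± 0.51. NDUFA1 had 365, 174 and 234 CPM in the Ribo libraries and 5.14, 3.52 and 10.1 CPM in the RNA libraries, and all Ribo libraries were at least an order of magnitude above RNA. POLR2L, a shared subunit of RNA polymerases, UBL5, a ubiquitin-like protein of splicing, C4orf48, SLIRP and ROMO1, mitochondrial proteins in the last 2 cases, were higher by 4.86, 4.25, 4.26, 3.97 and 3.80. SPINK1, the trypsin inhibitor of the pancreas, had 6220.2, 2791 and 2408 CPM in the Ribo libraries and 200.3, 169.7 and 342 CPM in the RNA libraries. Its lowest Ribo library was several times its highest RNA library (log2 4.003 ± 0.62, edgeR adjusted p = 0.00155). The remaining 4 behaved unlike these between libraries. ABCA13, a giant transporter, had 28.1, 581 and 89.2 Ribo CPM against 2.03, 2.28 and 2.57 RNA CPM, with ratios of 3.36, 7.71 and 5.01 in Ribo libraries 1, 2 and 3 (fit 6.65 ± 1.03). IL16, ST8SIA5 and KDM4D, at 6.23, 5.97 and 5.23 in the fit, were likewise highest in Ribo library 2, the one with most MT-RNR2 and fewest coding counts. The part of that library's composition was not tested.

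Of the 12 lowest genes, 10 are given here: H3F3A (-7.29), SRSF1 (-6.67), RPL7 (-6.60), EEF1A1, RPS3A, RPL21, SRP9 (-5.79), NBPF12 (-5.51), RPS28 (-5.47) and RPS2 (-5.32). H3F3A, which encodes the replacement histone H3.3, had 1.19, 5.59 and 0.885 CPM in the Ribo libraries and 401, 419 and 199 CPM in the RNA libraries. SRSF1, a splicing regulator, had 0.984, 3.07 and 0.885 Ribo CPM against 118, 108 and 208 RNA CPM, and SRP9, of the signal recognition particle, 5.08, 6.15 and 2.80 Ribo CPM against 209, 192 and 365 RNA CPM. For these 3, the Ribo libraries hold almost none of what the RNA libraries show. Of these 10, H3F3A and NBPF12 had no pseudogene by the naming rule, SRSF1 and SRP9 had 1 each, and the others had 9 to 137; the rule misses related genes under another name.

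Of 14283 coding genes with enough RNA counts, 1885 lacked enough Ribo counts, and 135 had enough Ribo but not RNA counts. At the boundary, 103 genes had 10 counts in their second highest Ribo library and entered, and 121 had 9 and did not. Genes with at least 20 CPM in each RNA library but too few footprints numbered 23, and the 6 with most RNA were RPL39, ZNF286A, UBE2W, MAATS1, ABHD17A and ACSM1. RPL39, which encodes a very small ribosomal protein, had 1, 7 and 1 counts in the Ribo libraries and 76.6, 69.9 and 214 CPM in the RNA libraries. ABHD17A, a depalmitoylating enzyme, had 2, 1 and 0 Ribo counts and 43.2, 41.3 and 47.4 RNA CPM.

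Gene length moved with the ratio. With genes divided into 5 equal groups by deposited length, which counts all exonic bases, the median ratio was 0.82 in the shortest group (207 to 3095 bases), then 0.32, 0.04 and -0.19, and -0.47 in the longest (8699 to 118976 bases). All 3 Ribo libraries showed that order. Across genes the Spearman rho of the ratio with length was -0.38. Coding length was not used here, so long untranslated regions, which take RNA reads but few footprints, could not be told apart from lower ribosome density. Set against the median of its own length group, each gene's ratio gave class medians of 1.42 for endocrine genes, 1.498 for hepatic plasma proteins, 1.05 for apolipoproteins, 1.02 for the respiratory chain and 0.59 for histones. The same value was -1.95 for ribosomal proteins, which are short, -0.91 for zinc finger genes and -1.45 for the fetal regulators. For mitochondrial ribosomal proteins it was 0.22, against 0.90 before.

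**Figure D5:**
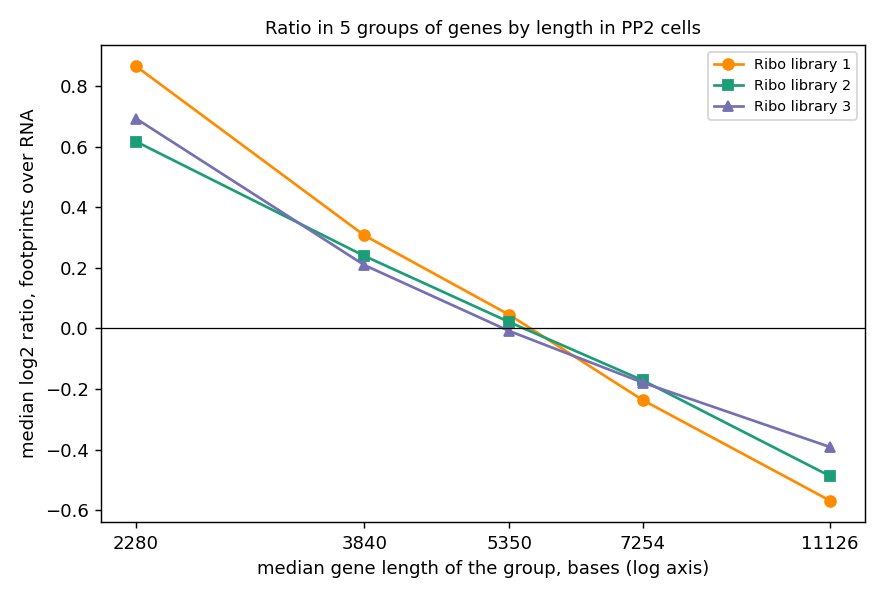
Median log2 ratio of footprints over RNA (vertical axis) in 5 equal groups of the tested genes by length, placed at each group's median length in bases on a log axis, for each of the 3 Ribo libraries. All 3 lines fall from left to right, and library 1 runs from 0.86 to -0.57.

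Finally, the ratio at PP2 was compared with its mean at DE and PP1, to ask which genes changed in occupancy late in differentiation. Of 11362 genes tested in an interaction fit of all 14 libraries, 72 (0.634%) were higher at PP2 and 134 (1.18%) lower, 206 in all (1.81%), and 2315 had an unadjusted p under 0.05. SLC7A1, a transporter of cationic amino acids, had ratios of -1.52 at DE, -1.45 at PP1 and 0.76 at PP2 (PP2 minus earlier 2.38 ± 0.43, edgeR adjusted p = 0.0125). That call did not hold without Ribo PP1 library 1 (0.0557). CDH7, a cadherin, had ratios of 6.43 at DE, 3.19 at PP1 and 0.54 at PP2 (-5.15 ± 0.46, edgeR adjusted p = 1.0e-04), from 49.9 and 81.4 CPM in the DE, 44.9 and 35.7 CPM in the PP1 and 45.3, 40.4 and 45.7 CPM in the PP2 Ribo libraries and 0.37 and 0.139 CPM in the DE, 3.54 and 4.36 CPM in the PP1 and 22.9, 25.5 and 45.6 CPM in the PP2 RNA libraries. Its footprint level was similar at all stages, and its RNA level was near 0 at DE and highest at PP2. The Ribo libraries of DE and PP1 had 28.4% to 35.5% of their counts in coding genes, against 44.5% to 95.05% at PP2, so stage and library composition cannot be told apart for Ribo libraries 1 and 3. Leaving those out makes Ribo PP2 library 2 the sole one of its kind. The spread in that fit comes from the other groups alone, so it cannot decide this and no conclusion is drawn from its calls. Without Ribo PP2 library 2, 2151 genes passed (1071 higher and 1080 lower). The total moved by more than 1.5 times without any single library except RNA PP2 library 3 (203), down to 32 without RNA PP1 library 1.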

How the data were processed

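Ribosome profiling and RNA libraries of HUES8 cells were read from 1 table of raw counts per gene symbol, deposited by the authors. Per the submitters' processing notes, cutadapt 1.18, Bowtie 1.2, STAR 2.7.1a and featureCounts 1.6.4 were used with hg38; strand setting, annotation release, the treatment of reads with several matches and whether footprints were counted over coding sequence are not given in the sources used here. Totals were 7197910 to 24186949 counts in the PP2 Ribo libraries and 17515134 to 21009065 in the PP2 RNA libraries. Every count column was matched to a sample.

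Gene types came from RefSeq (37304 of 59050 symbols matched, 995 by an older symbol or a synonym). Ribo over RNA was fitted in edgeR 4.0.16 (R 4.3.3) on the 6 PP2 libraries with the quasi-likelihood test, coding totals scaled by TMM, the count minimum of 10 and Benjamini-Hochberg adjustment over all genes tested; an adjusted p under 0.05 counted as passed. CPM are TMM-scaled, and ± is the SE of the fit. Ratios of single Ribo libraries used log2(CPM + 0.5). The interaction was fitted on all 14 libraries. Both fits were tested on simulated data. Members of 37 classes, the lists and the rules were chosen with earlier results of these data known; class counts and medians carry no test. Genes were named from the lists, or as the 12 highest and 12 lowest that passed with a mean of at least 20 CPM and no overlap (6 and 6, with no overlap rule, for the interaction). Alternatives were DESeq2 1.42.0, limma 3.58.1 voom, other scalings, filters and thresholds, a replicate block and leaving out libraries. Some named genes are not reported here. Overlapping genes are uncertain, as strand use is unknown.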

Additional observations from a re-analysis of the deposited data

Results flagged for a closer look

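The ratio of footprints to RNA differed between PP2 and the mean of the earlier stages for 206 genes by the interaction test. Of those with a mean of at least 20 CPM, the 6 with the largest increase at PP2 were MXRA5 (2.83), a matrix protein, EFEMP1 (2.80), another matrix glycoprotein, LSAMP (2.64), RTN4RL1 (2.53), UNC5B (2.39), a netrin receptor, and SLC7A1 (2.38). MXRA5 and RTN4RL1 met that mean through their levels at DE (198 and 92.7 RNA CPM on average). At PP2 both were scarce, with means of 2.62 and 2.56 RNA CPM and 3.85 and 4.95 Ribo CPM. EFEMP1 had ratios of -2.40 at DE, 0.10 at PP1 and 1.21 at PP2, with 0.845 and 0 CPM in the DE, 97.8 and 121 CPM in the PP1 and 727, 324 and 695 CPM in the PP2 Ribo libraries, and 4.44 and 3.27 CPM in the DE, 101 and 102 CPM in the PP1 and 217, 211 and 289 CPM in the PP2 RNA libraries. With 1 library left out, the calls of EFEMP1, LSAMP, MXRA5 and UNC5B did not hold in 9 of 12, 9 of 12, 8 of 10 and 12 of 14 fits that tested them (edgeR adjusted p up to 0.0838, 0.0999, 0.126 and 0.141), that of SLC7A1 did not hold in 1 of 14, and that of RTN4RL1 held in all 12.

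The 6 with the largest decrease were CDH7 (-5.15), EIF4E3 (-4.72), a cap-binding protein, SLC29A4 (-4.46), a monoamine transporter, C5orf34 (-3.99), SLC6A4 (-3.95), the serotonin transporter, and ZNF117 (-3.53). SLC29A4 had 455 and 1439 CPM in the DE, 1773 and 1249 CPM in the PP1 and 34.9, 153 and 25.04 CPM in the PP2 Ribo libraries, with 37.4 and 45.2 CPM in the DE, 55.5 and 68.99 CPM in the PP1 and 69.97, 74.2 and 51.98 CPM in the PP2 RNA libraries. SLC6A4 had 136 and 135 CPM in the DE, 117 and 90.3 CPM in the PP1 and 1.26, 20.2 and 4.10 CPM in the PP2 Ribo libraries, with 1.11 and 0.904 CPM in the DE, 0.992 and 1.28 CPM in the PP1 and 0.871, 1.11 and 1.16 CPM in the PP2 RNA libraries; its call did not hold in 12 of the 14 fits that left out 1 library (edgeR adjusted p up to 0.131). The call of EIF4E3 did not hold in 1 of 14 such fits, and those of the other 4 held in every such fit that tested them. With the replicate block, 10 of the calls named in this comparison held and 2 did not. Among the PP2 Ribo libraries, library 2 had the highest value of SLC29A4, SLC6A4, EIF4E3, C5orf34 and ZNF117, but not of CDH7. Its coding share of 44.5% was the nearest to the 28.4% to 35.5% of the earlier Ribo libraries. The part of library composition was not tested.

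Signal outside coding genes was read from 4 noncoding genes, chosen after their counts were seen. RMRP, the RNA of RNase MRP, had 502353 Ribo counts over the PP2 libraries against 111020 RNA counts. RNY1, a Y RNA, had 260701 Ribo and 36 RNA counts. MIR375, a microRNA of pancreatic islets, had 7407 Ribo and 3 RNA counts, at 1385, 1196 and 4826 in Ribo libraries 1, 2 and 3. MIR148A had 25023 Ribo and 12 RNA counts. Counts of small structured RNAs in a footprint library say nothing of ribosomes on them.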

How the results depend on the processing

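Of the 4113 genes called at PP2 (2136 higher, 1977 lower), edgeR with DESeq2 size factors called 4098, the DESeq2 Wald test 4759, no low-count filter 5106 and a mean of 50 counts 3599, each within 1.5 times. Coding totals gave 3692 (1341 higher). Limma voom with quality weights called 6924 (3493 and 3431), and glmTreat against a 2-fold difference 1044 (533 and 511), a test that asks for more by construction. Leaving out each library in turn gave 2353 to 4670 calls, 1144 to 2398 higher and 1111 to 2272 lower; the fits without RNA library 1 (2420), RNA library 2 (2754) and Ribo library 3 (2353) fell furthest. Without RNA library 3 and Ribo library 2 together, added after seeing the data, 6201 genes passed (3326 and 2875), 3800 of them among the 4113. No named gene that passed at either setting changed sign. Among genes that did not pass, 50 values had the other sign, such as PDX1 (0.24 without RNA library 1 and 0.19 with the replicate block) and HNF4A (-0.43 without RNA library 3). Where edgeR called 0 members of a class in 1 direction, 0 had an unadjusted p under 0.05 and 0 were called by DESeq2 or voom, except for collagen chains, with 1, 1 and 2 lower. Of 171 named genes called, 117 kept the call in every fit without 1 of the 6 libraries that tested them. Some had too few counts to be tested in such a fit, such as NBPF12, with 21, 1 and 13 counts in Ribo libraries 1, 2 and 3. The median kept its sign in 29 of 37 classes over 16 settings; those of iron-responsive genes, initiation factors, stress genes with upstream frames, stress response targets, polyamine genes, selenoproteins, cytosolic chaperones and cell cycle genes did not.

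The interaction with 206 genes (72 and 134) gave 212 with DESeq2 size factors, 866 (441 and 425) with the DESeq2 Wald test and 2827 (1633 and 1194) with voom. It ranged from 32 to 2151 calls, 4 to 1071 higher and 28 to 1080 lower, when 1 library was left out, with 203 without RNA PP2 library 3 and every other total over 1.5 times away, and gave 22 (0 and 22) without Ribo PP2 libraries 1 and 3. The causes were not tested. The fit without Ribo PP2 libraries 1 and 3 keeps only 1 Ribo library of PP2, so no conclusion is drawn from its count.

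The replicate block gave 4242 genes at PP2, and 97 (11 and 86) in the interaction. Deviations of same-numbered Ribo and RNA libraries correlated at -0.14, 0.11 and 0.03, so the numbers were not taken to pair the samples. Dividing ratios by the coding share of gene length was not run, as coding lengths were not at hand. Ribo library 2, with 3200041 coding counts, limits what low genes can show.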
